A study of Homo sapiens with 24 samples.

Results

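MDA-MB-175 is an ER+ human breast carcinoma line, and its response to a high-glucose medium was taken from 8 of the 24 RNA-Seq samples of the series. The 8 samples were 4 in 5 mM glucose (low glucose, the control condition) and 4 in 25 mM glucose (high glucose), each for 48 hours. The study asked how hyperglycemia changes gene expression in breast cancer cells, and the other 16 samples were ZR-75-30 and HCC1500 cells, both ER+ as well, under the same conditions. Stock cells were grown in RPMI with fetal bovine serum, conditioned to low glucose, washed, and then kept without serum in the 5 or 25 mM medium, so that serum was absent from all groups. The paper added mannitol to the control medium in some experiments and reports no differences in the phenotypes examined, with proliferation and migration shown. No such osmotic control was among the labels of these RNA-Seq samples, and glucose and osmolarity cannot be told apart in them. All samples came from 1 established line, which carries a fusion of TENM4 (DOC4) with the growth factor gene NRG1. A gene entered the comparison if 4 or more of the 8 samples had a value of 0.5 or higher, which kept 17029 of the 18889 genes in the table. The labels do not say whether the replicates were separate cultures started independently, so p-values measure only the spread between these samples.

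Glucose that enters a cell is phosphorylated by hexokinase, and glucose 6-phosphate drives the transcription factor MondoA (or its relative ChREBP, each paired with MLX) onto target genes. The classic targets are TXNIP and ARRDC4, arrestin-domain proteins that restrain further glucose uptake. Outside this circuit, a change of nutrients can engage other stress programs: NRF2 for oxidants and electrophiles, ATF4 for amino acid and translation stress, and the MiT/TFE factors for lysosomes. A luminal breast cancer cell also runs an estrogen receptor program and, while it divides, E2F-driven and late cell cycle genes.

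The values given are the deposited normalized read counts, that is, reads per gene divided by 1 factor per sample, so levels of different genes should not be compared without regard to gene length. The 8 samples held 9140024 to 15772835 recovered reads, and 3 reads were worth 1.17 to 2.01 in these units. Pearson correlations of log2 values across genes ran from 0.9891 to 0.9924 within low glucose, from 0.9917 to 0.993 within high glucose and from 0.978 to 0.982 between conditions. The first principal component held 51.2% of the variance and separated the conditions, and the second, with 12%, set low glucose replicate 4 apart from the other 7. All 12 luminal epithelial markers passed the filter, and their summed value was 80818 to 92438 in low glucose and 79419 to 85617 in high glucose. Sums cover only the markers that passed the filter, with their number in brackets. Leukocyte markers (4 of 9) summed to 12.2 to 15.4 in low and 14.1 to 25.8 in high glucose. In the same order, fibroblast markers (6 of 8) summed to 115 to 139.2 and 140.3 to 179.3. Endothelial markers (3 of 6) summed to 75.3 to 91.7 and 79.4 to 95.3, and adipocyte markers (2 of 5) to 144.1 to 172.2 and 176.8 to 208.9. Basal or myoepithelial markers (5 of 8) summed to 96.5 to 138 in low and 135.5 to 152.2 in high glucose, with 1 called higher. PTPRC, CD3E, PECAM1, ADIPOQ, KRT5 and KRT14 were not among the genes used here.

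High glucose changed a large number of genes by a small amount. At an adjusted p under 0.05 (limma on log2(value + 1), Benjamini-Hochberg), 4368 of 17029 genes (25.7%) differed, of which 2030 (11.9%) were higher and 2338 (13.7%) were lower in high glucose. The median change was 0.40 on the log2 scale among the genes that were higher and a decrease of 0.31 among those that were lower, against a median standard error of 0.10. A change of at least 1 on the log2 scale was reached by 290 genes that were higher and by 91 that were lower. The 2 groups of 4 samples did not overlap for 2167 genes that were higher and 2365 that were lower, or 26.6% of the genes tested. Calls were more frequent in abundant genes, with 269 of 4037 genes with a mean under 10 (6.7%) and 604 of 1305 with a mean of 1000 or more (46.3%). The median change over all tested genes was -0.02. The gene lists below are read against this value and against the shares of 11.9% higher and 13.7% lower. These shares cover genes of all levels. Of genes with a mean of 100 to 1000, 35.8% were called, so a list of well expressed genes can pass the shares through its level.

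**Figure D1:**
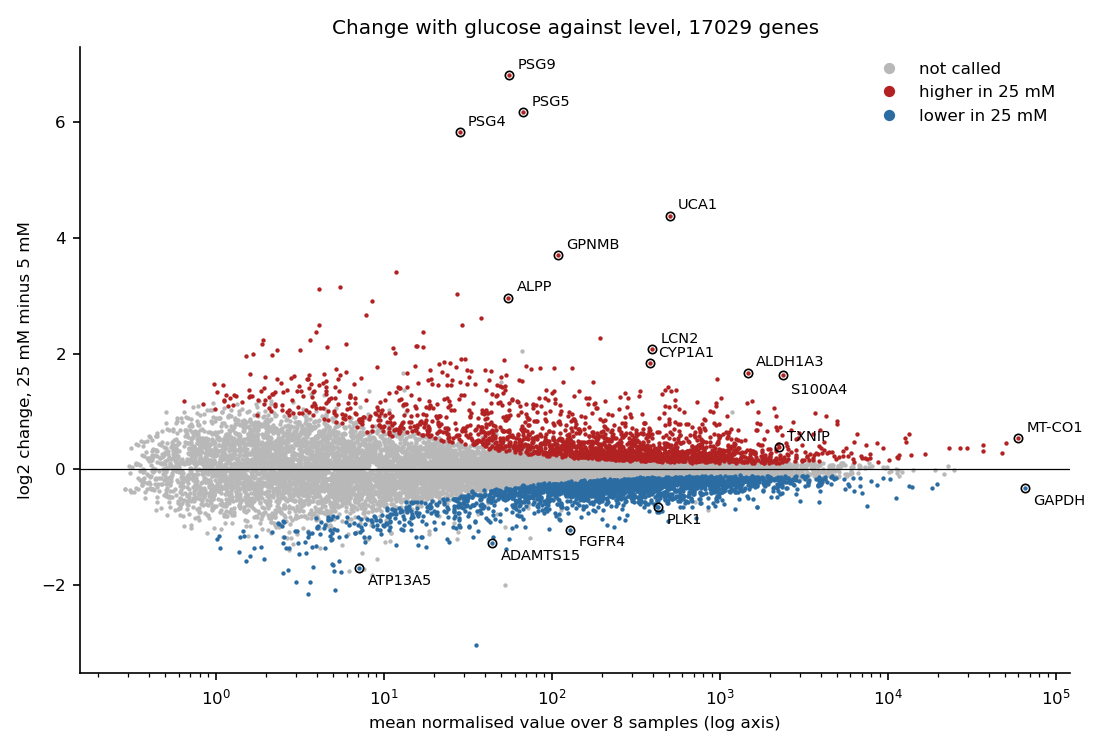
Log2 change between 25 and 5 mM glucose (vertical axis) against the mean normalized read count over the 8 samples (horizontal log axis) for 17029 genes, with the 2030 genes that were higher in red and the 2338 that were lower in blue. Large changes were mostly rises, led by PSG9, PSG5, PSG4, UCA1 and GPNMB, while the abundant genes at the right, such as MT-CO1 and GAPDH, moved by less than 1.

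The glucose-sensing genes bear on the labels directly. TXNIP, the arrestin-domain inhibitor of glucose uptake at chr1:145438490-145442635 (GRCh37, plus strand), had values of 2005, 1928, 1880 and 1941 in low glucose and 2574, 2518, 2477 and 2591 in high glucose. It rose in high glucose without overlap (log2 change 0.39 ± 0.04 SE, adjusted p = 1.1e-06). ARRDC4, its paralog, rose by a like amount, from 133, 115, 126 and 113 to 170, 169, 141 and 169 (0.41 ± 0.08, adjusted p = 0.0014). In the list of 11 glucose-sensing genes, 6 were higher, 2 were lower and the median change was 0.38. MLX, the dimer partner of MondoA and ChREBP, was among those that rose (0.72 ± 0.05, mean 610 to 1007), as did PDK4, the kinase that shuts off pyruvate dehydrogenase (0.68 ± 0.09, 92.2 to 149). ARRDC3, another arrestin-domain gene, fell by 0.55 ± 0.07 (214 to 146).

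The promoter of ARRDC4 is shown because it carries the CACGTG E-box, the core of the element that MondoA and ChREBP bind, here in capitals. It is given from 250 bases before the start to the base before it, chr15:97960453-97960702 on the plus strand of GRCh38.p14 (RefSeq):
ARRDC4: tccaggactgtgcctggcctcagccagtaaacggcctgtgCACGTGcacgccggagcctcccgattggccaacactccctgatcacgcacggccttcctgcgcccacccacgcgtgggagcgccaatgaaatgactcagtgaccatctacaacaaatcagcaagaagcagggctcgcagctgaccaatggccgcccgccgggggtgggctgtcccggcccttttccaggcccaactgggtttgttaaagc
The match lies 210 bases before the start. CACGTG, which reads the same on both strands, was found in 6 of 16 promoters (37.5%) of the listed glucose-sensing genes. These 6 promoters belong to 4 of the 10 listed genes with a promoter. The same letters were in 2548 of all 35116 promoters of the RefSeq table (7.26%). They were in 9% of those of tested genes and in 8.93% of those of genes called higher. Each promoter was taken from 250 bases before to 50 after the start. A match of letters is a description of the sequence and does not show binding.

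**Figure D2:**
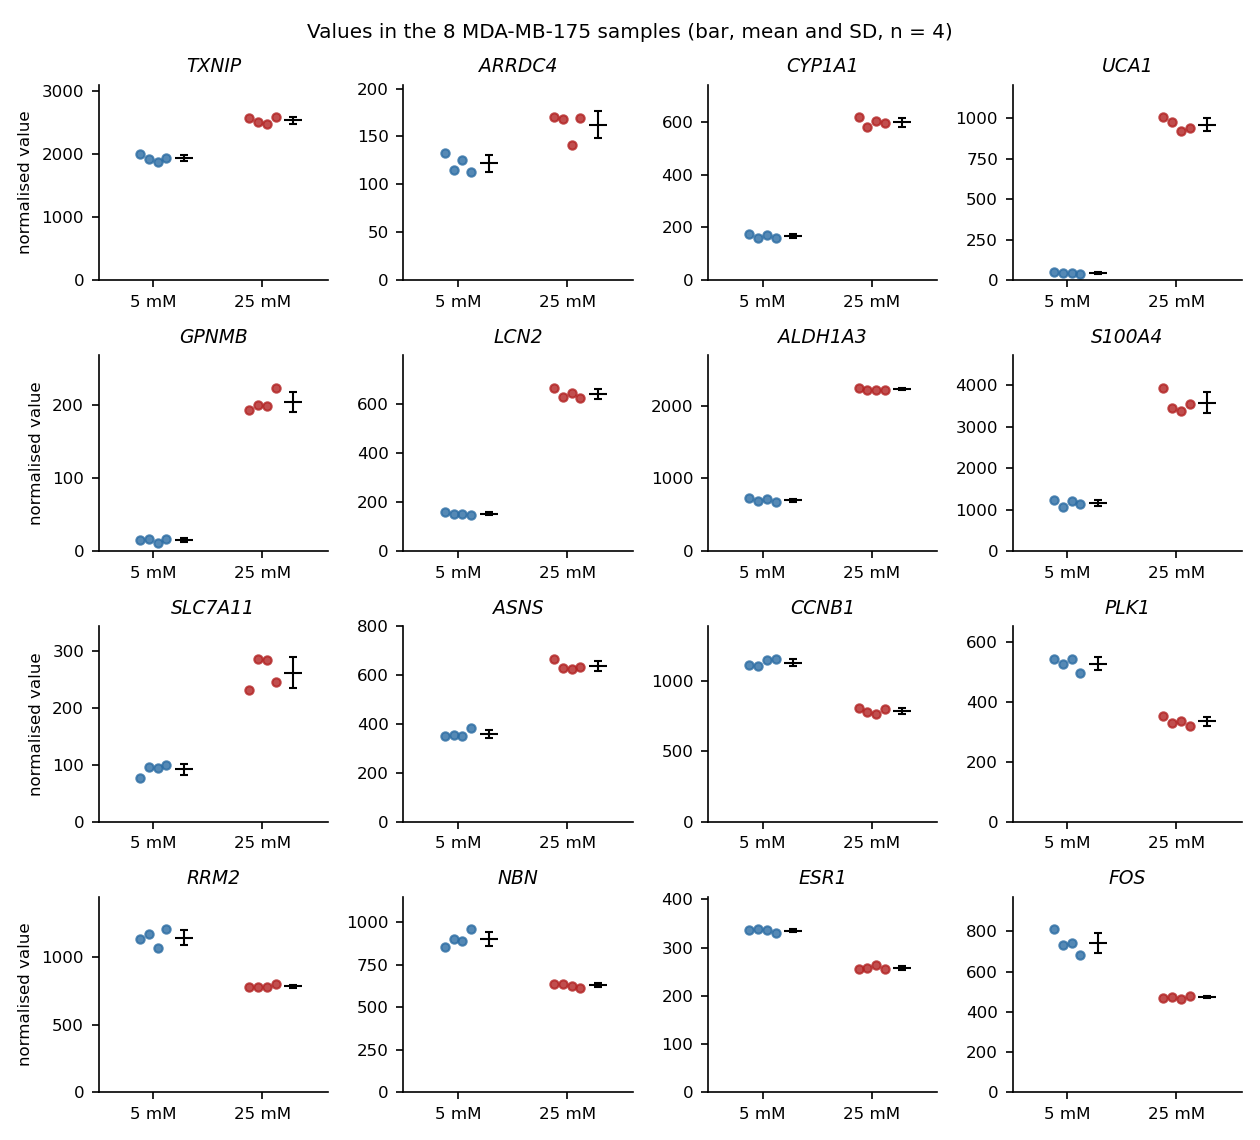
Normalized read counts (vertical axes, each from 0) of 16 genes in the 4 samples at 5 mM (blue) and the 4 at 25 mM glucose (red), with the mean and SD of 4 beside each group. The groups do not overlap in any of the 16 panels, and the scatter within a group is small next to the difference for CYP1A1, UCA1, GPNMB, LCN2, ALDH1A3 and S100A4.

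Genes of glucose use moved in both directions. Of 47 tested genes of glucose uptake and glycolysis, 18 were higher and 7 lower, with a median change of 0.04. HK2, the inducible hexokinase, rose from 1275, 1333, 1299 and 1242 to 2057, 2075, 2083 and 2054 (0.68 ± 0.04, adjusted p = 2e-09), whereas HK1, the constitutive form, had means of 2187 and 2141 and did not pass the test. SLC2A1, the basal glucose transporter GLUT1, rose by 0.36 ± 0.05. The monocarboxylate carrier genes SLC16A4 (1.15 ± 0.08, 64.8 to 145) and SLC16A3, the lactate exporter MCT4 (0.71 ± 0.10, 98.7 to 161), had the largest changes of the list among members without overlap. GAPDH, often used as a reference gene, fell by 0.33 ± 0.06, from between 68146 and 78738 to between 55343 and 61754. In the pentose phosphate, hexosamine and polyol genes, 4 of 19 were higher and 4 lower, against 11.9% and 13.7% of all tested genes. MGEA5, which removes O-GlcNAc from proteins, rose by 0.34 ± 0.04. GFPT1, the first enzyme of hexosamine synthesis, had means of 1142 and 1229 (adjusted p = 0.097, and 0.022 without low glucose replicate 4). SORD, which turns sorbitol into fructose, fell by 0.40 ± 0.08, and AKR1B1, the aldose reductase, had means of 94.1 and 80.8 (adjusted p = 0.075).

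**Figure D3:**
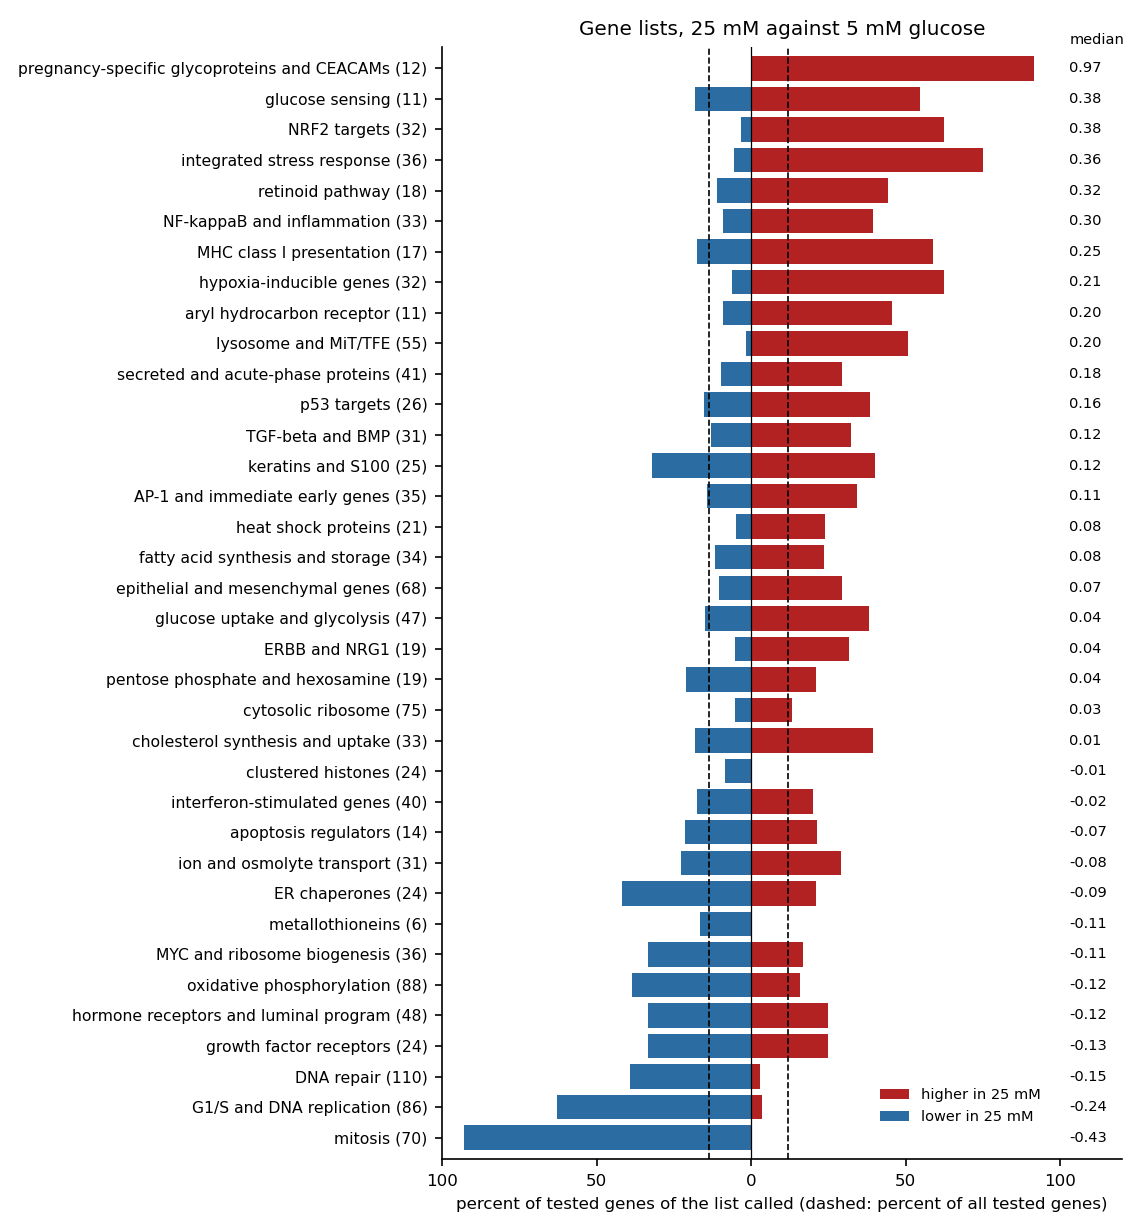
Percent of the tested genes of each list that were higher (red, to the right) or lower (blue, to the left) in 25 mM glucose, ordered by the median log2 change printed at the right, with the number tested in brackets. The dashed lines mark 11.9% and 13.7%, the shares over all tested genes, and the mitosis list has the longest bar to the left (65 of 70 genes) and the integrated stress response has 27 of 36 to the right. The bar of the pregnancy-specific glycoproteins and CEACAMs (11 of 12) holds 4 genes that passed the filter through the high glucose samples alone.

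Several of the largest rises came from genes that were at or near 0 in low glucose. PSG9, PSG5 and PSG4 encode pregnancy-specific glycoproteins, secreted immunoglobulin-family proteins made mainly by the syncytiotrophoblast of the placenta, and they lie next to each other on chromosome 19. PSG9 had 0 reads in all 4 low glucose samples and values of 124, 108, 105 and 107 in high glucose, at least 55.2-fold higher when low glucose is set to 3 reads of its shallowest library (2.01). PSG4 also had 0 reads in low glucose, with 51.2, 72.7, 49.2 and 53.1 in high glucose (at least 28.1-fold higher). PSG5 had 7 reads in all low glucose samples together and 1155 in high glucose, a ratio of 147 (95% exact interval of counting error only, 71.3 to 367). These genes span chr19:43715943-43773682 (PSG9), chr19:43670408-43690688 (PSG5) and chr19:43696854-43711451 (PSG4), all on the minus strand of GRCh37, and they are near-identical copies, so the division of reads among them is uncertain. Of 7 PSG genes in the table, 5 passed the filter, and for PSG9, PSG4, PSG3 and PSG8, at 0 in every low glucose sample, this was through the high glucose samples, so their difference follows in part from the filter. The related CEACAM adhesion genes were detected in both conditions, and 6 of 7 tested rose. CEACAM5, the carcinoembryonic antigen, rose from a mean of 5229 to 7969 (0.61 ± 0.04), and CEACAM6 went from 1675, 1658, 1746 and 1773 to 2917, 2893, 2819 and 2770 (0.73 ± 0.04, adjusted p = 1.2e-09).

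UCA1, a long noncoding RNA first described in urothelial carcinoma (chr19:15939016-15947138, GRCh37, plus strand), was already expressed in low glucose and rose steeply. Its values were 52.2, 45.6, 44.4 and 39.2 in low glucose and 1008, 980, 919 and 939 in high glucose (4.38 ± 0.08, adjusted p = 2e-15). GPNMB, a glycoprotein of melanosomes and lysosomes, rose from 15.2, 16.1, 11.4 and 16.8 to 193, 199, 199 and 223 (3.70 ± 0.12, adjusted p = 6.6e-12). The conditions were far apart in both genes. CES1, a carboxylesterase, had 9 reads in low glucose and 195 in high glucose, a ratio of 19.4 (9.99 to 43). ADM, the vasodilator peptide adrenomedullin, rose from between 2.54 and 12 to between 45.2 and 53.4 (3.02 ± 0.30), ALPP, the placental alkaline phosphatase, from between 7.63 and 14.7 to between 92 and 110 (2.97 ± 0.17), and RENBP, an epimerase of amino sugars, from between 0 and 3.05 to between 10.9 and 20 (2.90 ± 0.37). The remaining genes among the 12 largest rises were AC090425.1, with 2 reads against 89 (ratio 39.7, 10.7 to 333) and 0 reads in 3 low glucose samples, so that it too passed the filter through the high glucose samples, CTD-2003C8.2 (2.66 ± 0.37) and C12orf36 (2.61 ± 0.25). AC090425.1, CES1, PSG4, PSG5 and PSG9 were the 5 genes with 3 reads or fewer in every low and 10 or more in every high glucose sample, and 0 genes showed the reverse.

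The largest falls were smaller in size and came from weakly expressed genes. ATP13A5, a P-type ATPase, fell from 13.2, 8.04, 9.68 and 14.8 to 3.74, 1.14, 3.51 and 3.15, the last values lying near the worth of a few reads (-1.71 ± 0.31, adjusted p = 0.00058). CALML5, a calmodulin-like protein of keratinocytes, fell from 89.1, 92.5, 79.7 and 48.3 to 31.2, 33.5, 25.8 and 24.2 (-1.37 ± 0.18). The others were the kinase gene NRK (-1.34), the polysialyltransferase gene ST8SIA4 (-1.31), TDO2, which opens the tryptophan ring (-1.30), the matrix protease gene ADAMTS15 (-1.27), the protocadherin gene PCDH11X (-1.26), the aldehyde oxidase gene AOX1 (-1.25), the Notch-related gene DNER (-1.21), the uroplakin gene UPK1A (-1.20), the complexin gene CPLX2 (-1.17) and POLR2J2 (-1.17), whose reads are shared with near-identical copies. ADAMTS15 showed the tightest low glucose group of these, at 61.8, 61.6, 63.8 and 63.1 against 30.4, 19.9, 29.7 and 23.1.

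Most NRF2 target genes were higher in high glucose. NRF2 (gene NFE2L2) is released from KEAP1 by electrophiles and binds antioxidant response elements. Of 32 listed genes, all tested, 20 were higher and 1 (PRDX6) lower, with a median change of 0.38. SLC7A11, the cystine importer, rose from 76.7, 95.8, 95.1 and 99.7 to 231, 286, 284 and 246 (1.5 ± 0.09, adjusted p = 7.7e-09). HMOX1, heme oxygenase 1, rose from 61.8, 56.3, 55.8 and 54.4 to 149, 140, 139 and 163 (1.36 ± 0.09, adjusted p = 1.1e-08). AKR1C1, an aldo-keto reductase whose reads may be split with close paralogs, rose from a mean of 12.3 to 48.7 (1.92 ± 0.18), TXNRD1, the thioredoxin reductase, from 592 to 1318 (1.15 ± 0.04), and ME1, the cytosolic malic enzyme, from 97.9 to 148 (0.59 ± 0.07). NFE2L2 itself rose by 0.21 ± 0.04. NQO1, often the reference target of NRF2, was already at 12329 in low glucose and stood at 12000 in high glucose (adjusted p = 0.51). The 6 metallothioneins and zinc-handling genes tested had 0 higher and 1 lower, MT2A (-0.27 ± 0.09, adjusted p = 0.039 and 0.14 without low glucose replicate 3), with overlap between the groups, and the zinc exporter gene SLC30A1 had means of 349 and 362.

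The first promoter of TXNRD1 is printed because it holds a match to the antioxidant response element core TGACNNNGC, and a second begins in it, both in capitals (chr12:104215529-104215778, plus strand, GRCh38.p14, RefSeq, 250 bases before the start):
TXNRD1: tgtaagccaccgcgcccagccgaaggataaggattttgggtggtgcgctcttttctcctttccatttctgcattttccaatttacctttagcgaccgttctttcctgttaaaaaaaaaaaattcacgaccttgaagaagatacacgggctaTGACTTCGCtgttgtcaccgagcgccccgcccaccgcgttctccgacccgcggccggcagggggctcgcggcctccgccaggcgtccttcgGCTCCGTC
The matches begin 99 and 8 bases before the start. The second is on the other strand and runs 1 base past the stretch shown, which holds 8 of its 9 letters. Either strand held TGACNNNGC in 10 of 29 promoters (34.5%) of listed NRF2 genes and in 4687 of all 35116 (13.3%). The share was 14.2% for promoters of tested genes and 15.4% for those of genes called higher. It was 30.8% for the integrated stress response list, 28.6% for the lysosomal list and 10.5% for the hypoxia list.

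Aryl hydrocarbon receptor targets include the xenobiotic-metabolizing cytochromes, and 5 of 11 listed genes were higher and 1 lower (median 0.20). CYP1A1, the best known target (chr15:75011883-75017877, GRCh37, minus strand), rose from 175, 160, 172 and 159 to 618, 579, 602 and 594 (1.84 ± 0.05, adjusted p = 1.1e-12). AHR, the receptor, rose from a mean of 1263 to 2014 (0.67 ± 0.04) and TIPARP, its feedback inhibitor, from 177 to 282 (0.68 ± 0.08). CYP1B1 rose by 0.20 ± 0.04. The letters GCGTG, the core of the xenobiotic response element, were in 7 of 12 promoters of the list (58.3%). They were in 36.5% of all promoters, in 47.4% of those of tested genes and in 45% of those of genes called higher. The integrated stress response and NRF2 lists had them in 61.5% and 58.6% of promoters.

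Genes of the hypoxia response were mostly higher in high glucose. Of 32 tested, factors and regulators included, 20 were higher and 2 (EGLN3 and PFKFB4) were lower, with a median of 0.21. The targets alone had 16 of 25 higher and 1 lower (median 0.32). VEGFA, the endothelial growth factor, rose from 160, 168, 180 and 145 to 334, 320, 335 and 365 (1.05 ± 0.07, adjusted p = 1.8e-08). NDRG1, a stress-response gene, rose from a mean of 11.7 to 45.9 (1.90 ± 0.20), and MXI1, a MYC antagonist, from 39.6 to 63.3 (0.67 ± 0.14). HIF1A, which encodes the oxygen-regulated subunit, rose by 0.16 ± 0.04 (adjusted p = 0.012, and 0.054 without high glucose replicate 2), and EPAS1, its relative HIF-2 alpha, by 0.68 ± 0.04 (3028 to 4843). ADM and SLC2A1, described above, belong to this list as well.

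Most genes of the integrated stress response were higher as well. In this response, phosphorylation of eIF2 alpha slows general translation and favors ATF4, which turns on amino acid importers and synthetases. Of 36 tested genes 27 were higher and 2 (ATF5 and MTHFD2, the latter with an adjusted p of 0.045 and of 0.12 without low glucose replicate 2) lower, with a median of 0.36. ATF3, an early stress factor, rose from 28.5, 26.1, 22.2 and 25.4 to 80.3, 80.1, 79.6 and 84.1 (1.63 ± 0.12, adjusted p = 3.5e-08). ASNS, asparagine synthetase, rose from 352, 354, 350 and 383 to 667, 629, 624 and 633 (0.83 ± 0.05, adjusted p = 4e-09). Both genes were tight within each condition. SLC38A2, a glutamine transporter, went from 953 to 2174 (1.19 ± 0.04), NUPR1, a stress-induced nuclear protein, from 47.6 to 159 (1.75 ± 0.13), GDF15, a stress cytokine, from 2503 to 4907 (0.98 ± 0.08), and DDIT3, the CHOP factor, from 48.4 to 106 (1.11 ± 0.10). ATF4 mRNA rose by 0.25 ± 0.05. Serine synthesis genes PHGDH, PSAT1 and PSPH had changes of 0.16, 0.08 and 0.23 and did not pass the test.

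The ATF3 promoter holds a match to TGATGNAA, a core of the amino acid response element bound by ATF4, in capitals (chr1:212565157-212565406, plus strand, GRCh38.p14, RefSeq, 250 bases before the start):
ATF3: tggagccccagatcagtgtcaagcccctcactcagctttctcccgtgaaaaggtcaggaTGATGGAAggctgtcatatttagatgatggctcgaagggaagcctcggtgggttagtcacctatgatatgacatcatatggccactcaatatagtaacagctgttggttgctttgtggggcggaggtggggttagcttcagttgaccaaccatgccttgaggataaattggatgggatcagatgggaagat
It begins 191 bases before the start. TGATGNAA on either strand was in 7 of 39 promoters of the list (17.9%), in 1270 of all 35116 (3.62%) and in 2.1% of those of tested genes. Among promoters of genes called higher the share was 3.05%.

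Chaperones of the endoplasmic reticulum and of the cytosol did not follow the same course. Of 24 ER chaperone and quality control genes 5 were higher and 10 lower (median -0.09). HSPA5, the main ER chaperone BiP, had means of 4505 and 4706 (adjusted p = 0.26), SDF2L1 fell by 0.44 ± 0.10, and DNAJB9 (0.54 ± 0.07) and EDEM1 (0.71 ± 0.06), both linked to ER-associated degradation, rose. XBP1, a factor of the unfolded protein response and of luminal cells, fell from between 20127 and 20507 to between 15813 and 17052 (-0.32 ± 0.04). Among 21 heat shock genes 5 were higher and 1 lower, or 28.6%. Their median low glucose value was 1719, and 46.3% of all genes with a mean of 1000 or more were called. HSPB8, a small heat shock protein, rose from 295, 258, 264 and 238 to 696, 702, 639 and 695 (1.37 ± 0.06, adjusted p = 1.9e-10), HSPB1 by 0.47 ± 0.08, and HSPA1A and HSPA1B, which are near-identical copies, by 0.33 ± 0.07 and 0.35 ± 0.09.

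The MiT/TFE factors (MITF, TFEB, TFE3 and TFEC) activate lysosomal and autophagy genes together. Of 55 genes tested 28 were higher, 1 (SGSH) was lower and 26 were not called, with a median of 0.20. The lysosomal proteins among them had 16 of 34 higher and 1 lower, and the autophagy genes 10 of 17 higher and 0 lower. TFEC rose from 2.41, 5.36, 3.99 and 3.05 to 20, 14.8, 22.2 and 18.4 (2.10 ± 0.25, adjusted p = 1.1e-05). MITF rose from 178, 174, 182 and 182 to 386, 379, 380 and 376 (1.08 ± 0.05, adjusted p = 3.1e-10). The factors did not all move, since TFEB had means of 13.8 and 17.5 (adjusted p = 0.28). CTSL1, the table's symbol for cathepsin L, rose from a mean of 287 to 738 (1.36 ± 0.06), CTSD, cathepsin D, from 10324 to 14996 (0.55 ± 0.07), and SQSTM1, the autophagy receptor p62, from 1983 to 3495 (0.82 ± 0.05).

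The CTSD promoter is printed for its CLEAR element, the GTCACGTG site of the MiT/TFE factors, in capitals as read on the other strand (chr11:1763928-1764177, minus strand, GRCh38.p14, RefSeq, 250 bases before the start):
CTSD: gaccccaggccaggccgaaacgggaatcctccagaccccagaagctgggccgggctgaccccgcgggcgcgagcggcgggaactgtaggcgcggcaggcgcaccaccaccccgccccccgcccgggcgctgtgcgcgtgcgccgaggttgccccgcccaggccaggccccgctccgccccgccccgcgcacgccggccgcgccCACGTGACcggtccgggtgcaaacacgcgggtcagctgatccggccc
It begins 47 bases before the start. GTCACGTG contains the CACGTG E-box counted above, so the 2 matches overlap. GTCACGTG was in 7 of 56 promoters (12.5%) of the lysosomal list, in 844 of all 35116 (2.40%) and in 3.57% of those of tested genes. Among promoters of genes called higher the share was 3.47%.

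Most late cell cycle genes fell in high glucose. Of 70 mitosis genes, all tested, 65 were lower and 0 higher, and the median change was -0.43 against -0.02 for all genes. The 5 that did not pass the test, CDC25A (-0.21), AURKB (-0.27), WEE1 (-0.06), CKS1B (-0.11) and CENPN (-0.15), also had values below 0. PLK1, the mitotic kinase, fell from 544, 527, 542 and 496 to 354, 328, 335 and 320 (-0.66 ± 0.05, adjusted p = 1e-07). CCNB1, cyclin B1, fell from 1113, 1100, 1142 and 1155 to 807, 774, 764 and 796 (-0.52 ± 0.04, adjusted p = 8.3e-08). In both genes the lowest low glucose sample stayed above the highest high glucose sample. MKI67, the proliferation marker, went from a mean of 3255 to 2415 (-0.43 ± 0.05), CDK1 from 871 to 653 (-0.41 ± 0.04), the kinesins CENPE from 436 to 276 (-0.66 ± 0.06) and KIF18A from 191 to 118 (-0.69 ± 0.09). All of these cells had been without serum for 48 hours, and the mRNA values do not separate fewer dividing cells from less RNA per dividing cell.

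PLK1 and CDC20 show the promoter form of this group, the cell cycle genes homology region TTTGAA together with CCAAT boxes, both in capitals. They are given for 250 bases before the start on the plus strand of GRCh38.p14 (RefSeq), at chr16:23678639-23678888 and chr1:43358731-43358980:
PLK1: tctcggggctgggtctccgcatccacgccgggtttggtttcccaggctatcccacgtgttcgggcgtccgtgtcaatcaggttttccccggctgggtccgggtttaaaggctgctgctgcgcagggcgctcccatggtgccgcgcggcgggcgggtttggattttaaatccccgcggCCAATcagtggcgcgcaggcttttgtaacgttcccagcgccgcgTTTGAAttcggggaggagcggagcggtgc
CDC20: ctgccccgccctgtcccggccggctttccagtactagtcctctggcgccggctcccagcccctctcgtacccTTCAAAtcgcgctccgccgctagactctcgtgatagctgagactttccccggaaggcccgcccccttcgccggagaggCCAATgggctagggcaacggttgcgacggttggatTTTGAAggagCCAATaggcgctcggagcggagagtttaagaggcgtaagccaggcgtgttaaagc
In PLK1, TTTGAA began 29 and CCAAT 73 bases before the start. In CDC20, the activator of the anaphase-promoting complex (254 to 167, -0.60 ± 0.08), TTTGAA began 65 and, on the other strand, 178 bases before it, with CCAAT at 100 and 55. TTTGAA on either strand was in 45 of 73 promoters of mitosis genes (61.6%), against 15.2% of all promoters and 10.7% of those of tested genes. The CCAAT letters were in 69.9% against 34.6%, and both together in 35 of 73 (47.9%) against 2073 of 35116 (5.90%). Promoters of the G1/S and replication list held TTTGAA in 6 of 98 (6.12%). Among promoters of all genes called lower, TTTGAA was in 12.7% and TTTGAA together with CCAAT in 6.7%. The shares for tested genes were 10.7% and 4.29%.

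Genes of G1/S and DNA replication fell as well, by less. Of 86 tested 54 were lower and 3 higher (median -0.24), and the origin, fork and polymerase genes had 31 of 42 lower and 0 higher. RRM2, the ribonucleotide reductase subunit that supplies deoxynucleotides in S phase, fell from 1133, 1167, 1070 and 1204 to 778, 780, 780 and 798 (-0.54 ± 0.04, adjusted p = 1.4e-07). MCM2, a subunit of the replicative helicase, fell from a mean of 795 to 600 (-0.41 ± 0.05), and E2F7, an atypical E2F, from 102 to 68.4 (-0.57 ± 0.08). The 3 that rose were CCND1, cyclin D1 (6402 to 7516, 0.23 ± 0.04), and the cyclin-dependent kinase inhibitor genes CDKN1A (1384 to 1568, 0.18 ± 0.05) and CDKN2B (102 to 150, 0.56 ± 0.09).

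DNA repair genes were of particular interest to the study, and 43 of 110 listed were lower, 3 higher and 64 not called, with a median of -0.15. The homologous recombination and Fanconi genes, many of which are expressed in S phase, had 20 of 37 lower and 0 higher (median -0.24). The mismatch and excision repair genes had 16 of 47 lower and 2 higher (median -0.11), and the end-joining and checkpoint genes 7 of 26 lower and 1 higher (median -0.10). The shares called in either direction were 41.8% for the list and 54.1%, 38.3% and 30.8% for these groups in turn. The groups had median low glucose values of 139.5, 223.5 and 173.7, and 35.8% of all genes with a mean of 100 to 1000 were called. BRCA1 fell from 392, 416, 383 and 414 to 282, 340, 316 and 304 (-0.37 ± 0.06, adjusted p = 0.00022). BRCA2 had 123, 142, 130 and 163 in low glucose and 106, 134, 129 and 125 in high glucose, which overlapped and did not pass the test (-0.17 ± 0.10, adjusted p = 0.22). NBN, of the break-sensing MRN complex, fell by 0.52 ± 0.04 and NEIL3, a DNA glycosylase, by 0.68 ± 0.12. The 3 that rose were RAD23B (0.18), GTF2H1 (0.18, adjusted p = 0.082 without high glucose replicate 2) and LIG4 (0.26), the ligase of end joining. Mitosis and replication genes fell in the same samples, and their part in the lower repair values was not tested.

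**Figure D4:**
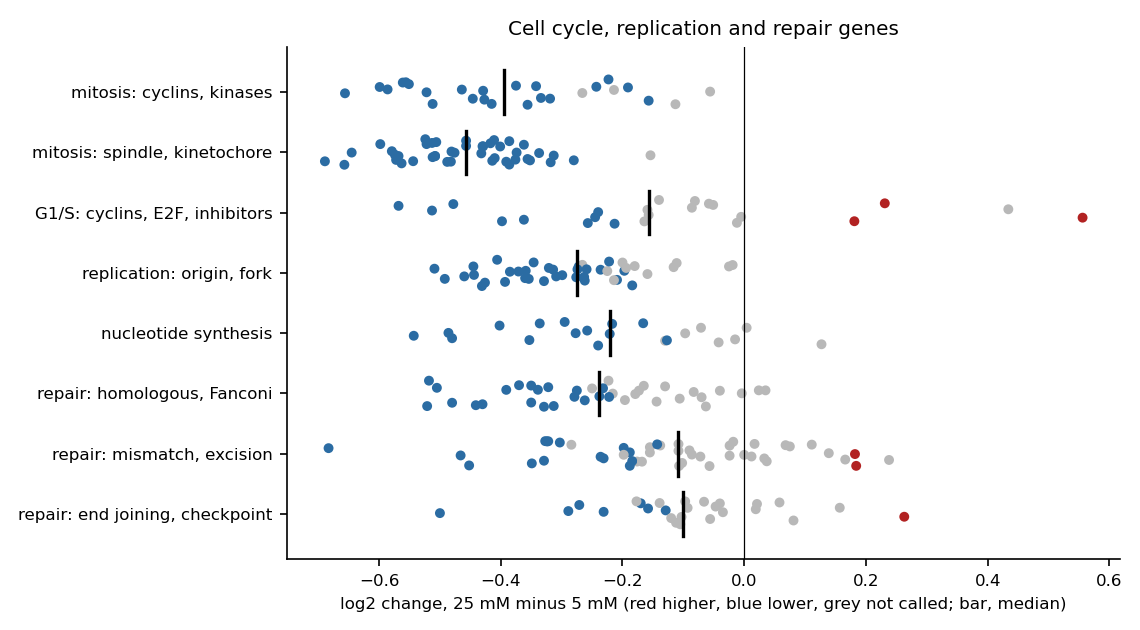
Log2 change between 25 and 5 mM glucose (horizontal axis) of each tested gene in 8 groups of cell cycle, replication and repair genes, with genes that were lower in blue, higher in red and not called in grey, and a black bar at each median. All 70 mitotic genes lie to the left of 0, as do 34 of 47 mismatch and excision genes and 20 of 26 end-joining and checkpoint genes.

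Of the 13 mitochondrially encoded genes of oxidative phosphorylation 12 were higher and 0 lower (median 0.38). Of its 75 nuclear subunits 34 were lower, 2 higher and 39 not called (median -0.15). MT-CO1, a core subunit of cytochrome oxidase, rose from 52723, 45107, 47736 and 49714 to 65668, 75231, 70852 and 71475 (0.54 ± 0.06, adjusted p = 4e-06). MT-ND4 (0.45 ± 0.06), MT-ND2 (0.47 ± 0.06), MT-ND1 (0.42 ± 0.06) and MT-CO2 (0.43 ± 0.07) rose with it, and mitochondrially encoded genes took 3.65 to 4.26% of the reads in low and 4.80 to 5.57% in high glucose. Of the nuclear genes, ATP5G1, a subunit of ATP synthase, fell by 0.48 ± 0.06, while NDUFS1 (829 and 798) and COX4I1 (1423 and 1413) did not pass the test. Cytosolic ribosomal protein genes had 10 of 75 higher and 4 lower (median 0.03), where 11.9% and 13.7% of all tested genes were called in these directions. RPL4 changed by 0.26 ± 0.04, RPL13A by 0.20 ± 0.06, RPL26 by 0.22 ± 0.05 and RPL41 by -0.27 ± 0.06, while RPS3 had means of 14125 and 14015. In the MYC and ribosome biogenesis list 12 of 36 were lower and 6 higher. MYCN fell by 0.69 ± 0.10 and NCL, nucleolin, by 0.16 ± 0.04, SAT1, which degrades polyamines, rose from 1366 to 2856 (1.06 ± 0.04), and MYC had means of 20.3 and 27.6 (adjusted p = 0.076). EEF1A1, the translation elongation factor, was among the 5 most abundant genes that rose (0.29 ± 0.05).

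Of 48 tested genes of the luminal and hormone program 16 were lower and 12 higher, with a median of -0.12, and of the 12 luminal markers 8 were lower and 1 higher. ESR1, the estrogen receptor, fell from 336, 338, 336 and 330 to 255, 257, 263 and 256 (-0.38 ± 0.05, adjusted p = 2.7e-05). The pioneer factor gene FOXA1 fell by 0.17 ± 0.04 and CDH1, E-cadherin, by 0.15 ± 0.04. TFF1, a classic estrogen-induced gene, had means of 2491 and 2236 (adjusted p = 0.061, and 0.0033 without low glucose replicate 4), WISP2, another, rose from 3.22 to 11.5 (1.59 ± 0.27), and PKIB, a protein kinase A inhibitor, rose from 16.9 to 35.6 (1.03 ± 0.19).

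MDA-MB-175 cells depend on autocrine NRG1 signaling through ERBB3, so this family was followed on its own. NRG1 had values of 146, 162, 150 and 169 in low and 138, 152, 143 and 145 in high glucose and did not pass the test (-0.12 ± 0.07, adjusted p = 0.25). TENM4, the fusion partner, fell from 435, 466, 488 and 422 to 352, 347, 350 and 353 (-0.37 ± 0.05, adjusted p = 8.1e-05). Gene-level values do not tell fusion reads from those of the separate genes. The receptors ERBB3 (2608 and 2503) and ERBB2 (4672 and 4629) did not pass the test, whereas the EGFR ligand genes AREG (70.1 to 153, 1.12 ± 0.10) and TGFA (64.5 to 94.9, 0.56 ± 0.10) rose, as did ERRFI1, a feedback inhibitor of EGFR (0.62 ± 0.05). Of the 19 genes 6 were higher and 1 lower.

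Among 24 other growth factor receptor and insulin pathway genes 6 were higher and 8 lower. INSR, the insulin receptor, rose from 465, 440, 493 and 447 to 750, 828, 810 and 777 (0.78 ± 0.05, adjusted p = 1.1e-08). IRS2, its substrate, rose from a mean of 41.2 to 87.8 (1.09 ± 0.12) and IGF1R by 0.26 ± 0.05. FGFR4 fell from 174, 193, 177 and 148 to 74.5, 90.9, 95.7 and 74.1 (-1.04 ± 0.10, adjusted p = 1.4e-06).

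Epithelial and mesenchymal genes did not move as a block. Of 68 tested 20 were higher and 7 lower (median 0.07). Within them the mesenchymal factors and matrix genes had 15 of 41 higher and 2 lower (median 0.41). The junction genes had 5 of 27 in each direction, where 11.9% of all tested genes were higher and 13.7% lower. TGFBI, a matrix protein induced by TGF-beta, rose from 31.3, 40.2, 32.5 and 33.6 to 118, 111, 118 and 116 (1.73 ± 0.10, adjusted p = 5.6e-09). TGM2, a transglutaminase that cross-links matrix and is induced by retinoic acid, rose from a mean of 57.4 to 144 (1.32 ± 0.09) and INHBA, the activin subunit, from 10.6 to 31.3 (1.45 ± 0.19). VIM, the mesenchymal filament gene, stayed between 7.97 and 16.8 in all 8 samples (adjusted p = 0.49), and ZEB1 had at most 5 reads in any sample, with values between 0.568 and 1.95. In the TGF-beta and BMP list 10 of 31 were higher and 4 lower. TGFB2 rose from 16.2 to 46.5 (1.47 ± 0.18), BMP7 fell from 19.8 to 9.27 (-1.05 ± 0.22), ID1, a target of BMP signals, fell by 0.59 ± 0.10, and SMAD7, the inhibitory SMAD, had means of 33.3 and 31.7.

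S100A4, a calcium-binding protein linked to cell motility, rose from 1229, 1056, 1207 and 1122 to 3938, 3460, 3373 and 3541 (1.63 ± 0.06, adjusted p = 6.6e-12). Its relative S100A2 rose from a mean of 9.84 to 28.9 (1.48 ± 0.20). Of 25 keratin and S100 genes 10 were higher and 8 lower. KRT80 rose by 0.68 ± 0.04, the luminal keratin KRT8 had means of 22515 and 23250 (adjusted p = 0.61), and KRT19 (-0.30 ± 0.06) and KRT81 (-0.29 ± 0.08) fell with overlapping groups. Among 41 genes for secreted and acute-phase proteins 12 were higher and 4 lower (median 0.18). LCN2, lipocalin 2, an iron-scavenging protein of inflamed epithelia, rose from 158, 150, 151 and 144 to 664, 628, 641 and 622 (2.07 ± 0.05, adjusted p = 1.7e-13). A2M, a protease inhibitor, rose from 270, 277, 261 and 248 to 681, 700, 743 and 731 (1.43 ± 0.05, adjusted p = 1.2e-11). SCGB2A2, mammaglobin, rose by 0.61 ± 0.04 and TFF2 from 21.2 to 63.8 (1.55 ± 0.14), while the mucin gene MUC2 fell by 0.39 ± 0.09 and BPIFB1, an abundant secreted protein of mucosa, by 0.26 ± 0.05. SERPINA3 had means of 7.09 and 9.81 (adjusted p = 0.38).

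Inflammatory genes were low in level and moved unevenly. Of 33 NF-kappaB and inflammation genes tested, out of 44 in the table, 13 were higher and 3 lower (median 0.30). NFKBIA, the inhibitor that NF-kappaB induces, rose from 548, 521, 539 and 459 to 801, 755, 717 and 729 (0.54 ± 0.06, adjusted p = 3.6e-06). ICAM1, an adhesion molecule, rose from a mean of 6.92 to 20.7 (1.42 ± 0.23), TNFSF15 from 12.5 to 38.2 (1.55 ± 0.17) and IL8 from 2.36 to 8.24 (1.56 ± 0.34). Class I antigen presentation genes had 10 of 17 higher and 3 lower (median 0.25), with HLA-B at 85.9, 85.1, 83.7 and 74.3 in low and 142, 121, 114 and 110 in high glucose (0.56 ± 0.09, adjusted p = 0.00032). ERAP2, a peptide-trimming protease (1.29 ± 0.16), the immunoproteasome subunit PSMB8 (0.58 ± 0.15) and the class I activator NLRC5 (0.68 ± 0.14) rose too, although reads of HLA genes may be split among close paralogs. Interferon-stimulated genes had 8 of 40 higher and 7 lower with a median of -0.02 (-0.04 to 0.01 under other scalings). Over all tested genes the shares were 11.9% higher and 13.7% lower. IRF1 (0.78 ± 0.08), OAS1 (0.75 ± 0.06) and SAMD9 (0.79 ± 0.23, adjusted p = 0.059 without low glucose replicate 1) rose, whereas IFIT1 had means of 7.48 and 4.36 (adjusted p = 0.098).

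Of 35 AP-1 and immediate early genes 12 were higher and 5 lower (median 0.11), and FOS and EGR1 were among the lower. FOS fell from 811, 732, 744 and 684 to 472, 474, 465 and 479 (-0.65 ± 0.05, adjusted p = 1.2e-07). EGR1 fell from 862, 827, 867 and 787 to 531, 538, 552 and 519 (-0.64 ± 0.05, adjusted p = 3.4e-08). DUSP5 (0.96 ± 0.06) and DUSP10 (0.92 ± 0.09), phosphatases that switch off MAP kinases, rose.

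Lipid genes showed no common direction. In cholesterol synthesis and uptake 13 of 33 were higher and 6 lower (median 0.01, and -0.01 to 0.04 under other scalings). The sensing, uptake and efflux genes among them had 8 of 13 higher, including NR1H3 (0.41 ± 0.08) and NR1H2 (0.37 ± 0.10), which encode the liver X receptors, and NPC1, which exports cholesterol from lysosomes (0.46 ± 0.07). In fatty acid synthesis and storage 8 of 34 were higher and 4 lower, against 11.9% and 13.7% of all tested genes. SCD, the stearoyl-CoA desaturase, rose from 32066, 32912, 32792 and 33196 to 40418, 41788, 40983 and 39411 (0.31 ± 0.04, adjusted p = 4.6e-05). FASN, the fatty acid synthase, had means of 19383 and 19072 (adjusted p = 0.93, and 0.049 without low glucose replicate 4). MGLL, which hydrolyses monoglycerides (0.78 ± 0.04), LPIN1, a phosphatidate phosphatase (0.72 ± 0.10), and PLIN2, a lipid droplet coat protein (0.52 ± 0.06), rose.

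Osmolyte genes are of interest because 25 mM glucose adds solute to the medium. SLC6A6, the taurine transporter and a known target of osmotic stress (chr3:14444076-14530857, GRCh37, plus strand), rose from 505, 486, 484 and 475 to 1436, 1428, 1490 and 1421 (1.57 ± 0.04, adjusted p = 2.2e-13). SLC5A3, the myo-inositol transporter, rose from 198, 236, 253 and 262 to 298, 308, 351 and 329 (0.44 ± 0.08, adjusted p = 0.00069). AKR1B1, the aldose reductase that osmotic stress also induces, had the values given above and did not pass the test. ATP1B3, a sodium pump subunit, rose from a mean of 354 to 646 (0.86 ± 0.05). Of the 31 ion and osmolyte genes 9 were higher and 7 lower.

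ALDH1A3, which makes retinoic acid and marks stem-like breast cancer cells, rose from 724, 683, 710 and 680 to 2251, 2226, 2222 and 2226 (1.67 ± 0.04, adjusted p = 6.2e-14), whereas ALDH1A1 fell from a mean of 48.2 to 29.8 (-0.67 ± 0.14). STRA6, the receptor for retinol-binding protein, rose from 8.33 to 29.4 (1.71 ± 0.19), and 8 of 18 retinoid genes were higher and 2 lower (median 0.32). Of 26 p53 targets 10 were higher and 4 lower. The proapoptotic genes BBC3 (21 to 47, 1.15 ± 0.16), PMAIP1 (15.3 to 33.1, 1.07 ± 0.17) and BMF (262 to 647, 1.30 ± 0.06) rose, MDM2, a p53 target itself, fell by 0.21 ± 0.05, BCL2L11 fell by 0.20 ± 0.07 with overlapping groups (adjusted p = 0.047, and 0.14 without high glucose replicate 1 or 3), and MCL1 had means of 2671 and 2738. Of 14 apoptosis regulators 3 were higher and 3 lower, where 11.9% and 13.7% of all tested genes were called in these directions. Clustered histones had 0 of 24 higher and 2 lower, HIST1H2AC (-0.28 ± 0.05) and HIST1H2BK (-0.33 ± 0.05), with HIST1H1C (196 and 185) and HIST2H2BE (261 and 247) not passing the test.

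The response of MDA-MB-175 was set against those of ZR-75-30 and HCC1500 by testing the difference between the glucose changes of 2 lines in 1 model of all 24 samples. High glucose replicate 3 of HCC1500 stood apart before any comparison, with correlations of 0.912 to 0.917 to the other 3 of its group, which agreed at 0.991 with each other, so the comparisons below give its effect where leaving it out changed a call or a count. The change differed from that of ZR-75-30 for 2029 of 18144 genes (11.2%; 4684 without that sample), from that of HCC1500 for 3214 (17.7%; 5887 without it), and from both in the same direction for 590 (3.25%; 1424 without it), of which 420 were higher and 170 lower in MDA-MB-175. The change was higher in MDA-MB-175 than in ZR-75-30 for 5.54% of all genes and lower for 5.64% (12.6% and 13.3% without that sample), and higher than in HCC1500 for 11.3% and lower for 6.46% (21.1% and 11.3% without it). In this model the change within MDA-MB-175 lost its call for 53 genes named here, such as MKI67 (adjusted p = 0.11), BRCA1 (0.074), ATF4 (0.34), GAPDH (0.26) and CEACAM6 (0.061). Without the sample that stood apart it was lost for 9, which were AREG, BCL2L11, CDH1, CYP1B1, KRT81, MUC2, MYCN, POLR2J2 and SCGB2A2.

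The 5 genes whose change was most above that of both lines were PSG5, PSG9, CES1, AC090425.1 and CTD-2003C8.2. PSG9 rose without overlap in the other lines too. Its values went from 0 to 1.14 up to 6.75 to 14.4 in ZR-75-30, and from 3.45 to 4.76 up to 9.44 to 20 in HCC1500. With 0 reads in MDA-MB-175 low glucose, the size of its change there depends on the 1 added to each value. In ZR-75-30 low glucose PSG9 had reads in only 1 sample, at most 2, so its change in that line depends on the added 1 too. Which of these 2 lines had the larger fold thus cannot be told. PSG5 changed by 6.17 in MDA-MB-175, against 0.75 in ZR-75-30 and 1.18 for HCC1500 (differences 5.42 ± 0.38 and 4.99 ± 0.38, adjusted p = 5.4e-09 and 4.9e-09), and CES1 by 3.41, -0.07 and -0.13. PSG5 had at most 5 reads in any ZR-75-30 sample and at most 7 in any HCC1500 sample. The size of its differences thus rests mainly on the rise in MDA-MB-175. CES1, AC090425.1 and CTD-2003C8.2 had at most 5 reads in any sample of the other lines, so their differences restate the rise in MDA-MB-175. The same holds for TFEC, with 0 reads in ZR-75-30 and at most 1 in HCC1500, and for UCA1 against ZR-75-30, where it had 0 reads in all 8 samples. In HCC1500, UCA1 went from values of 0.318 to 3.45 to values of 8.85 to 17.8, a change of 2.51 against 4.38 in MDA-MB-175 (difference 1.87 ± 0.35, adjusted p = 0.00058). UCA1 had 1 to 9 reads in HCC1500 low glucose, so its change in that line, and this difference, depend on the 1 added to each value. ALDH1A3 changed by 1.67 against -0.07 in ZR-75-30 (adjusted p = 0.0019), and in HCC1500 it had at most 4 reads in any sample. SLC7A11 changed by 1.5, -0.97 and 0.17 (adjusted p = 4.2e-07 and 0.00041). GPNMB changed by 3.70, 2.77 and 3.47, with a difference to ZR-75-30 of 0.92 ± 0.24 (adjusted p = 0.013) and to HCC1500 of 0.23 ± 0.24 (adjusted p = 0.56). In HCC1500 low glucose GPNMB had 2 to 4 reads (values of 0.635 to 1.53). Its change in that line thus depends on the 1 added to each value. ARRDC4 changed by 0.41, 0.41 and 0.39 (differences 0.00 ± 0.15 and 0.02 ± 0.15), and TXNIP rose less in MDA-MB-175 than in the other lines, by 0.39 against 0.76 and 1.02 (adjusted p = 0.00021 and 1.2e-07). The 5 genes most below both lines were weakly expressed: ENSG00000239969, CAPSL, BST1, DEPDC7 and TFAP2E. TFAP2E did not pass the test within MDA-MB-175 (-0.55 ± 0.27, adjusted p = 0.16). BST1 had at most 5 reads in any sample of the other lines, and DEPDC7 had at most 3 in HCC1500.

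**Figure D5:**
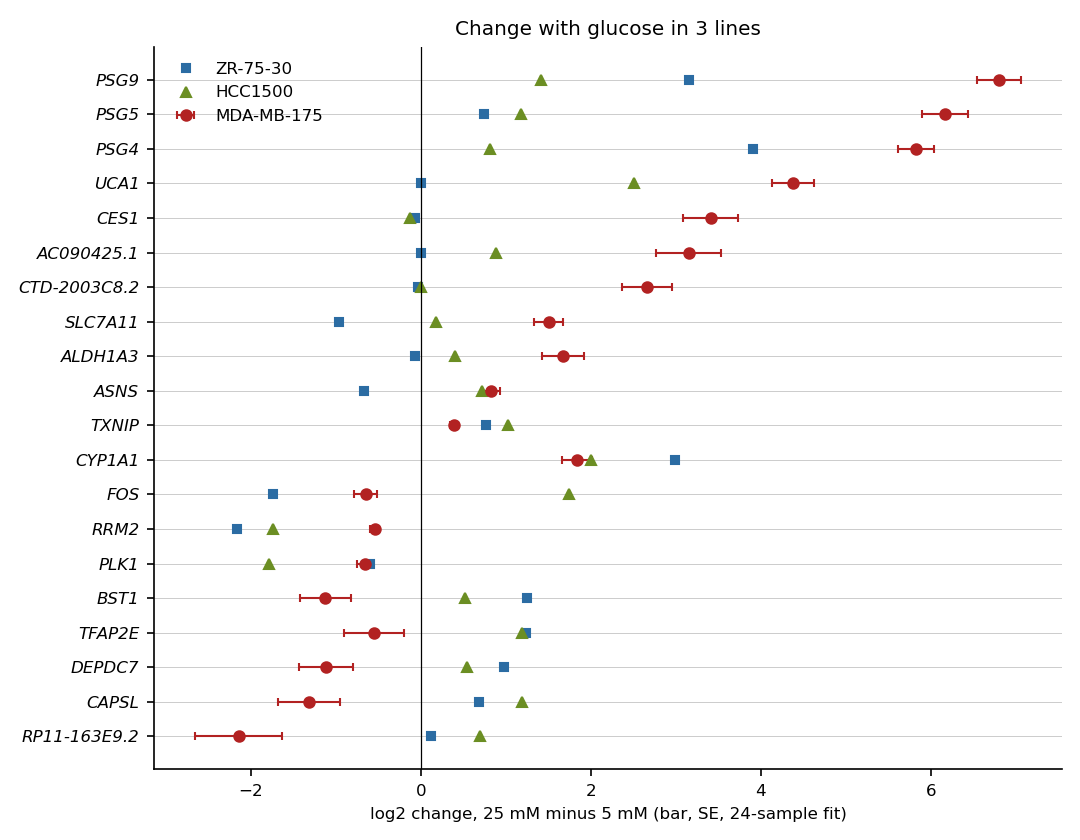
Log2 change between 25 and 5 mM glucose (horizontal axis) of 20 genes in MDA-MB-175 (red circles, with SE), ZR-75-30 (blue squares) and HCC1500 (green triangles), from the model of 24 samples. PSG9, PSG5, PSG4, UCA1 and CES1 lie farthest to the right in MDA-MB-175, TXNIP lies to the right of 0 in all 3 lines, and RRM2 fell least in MDA-MB-175.

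Many cell cycle genes fell less in MDA-MB-175 than in the other lines. The median change of the 70 mitosis genes was -0.43, against -0.78 in ZR-75-30 and -1.43 in HCC1500, and the change was higher in MDA-MB-175 for 26 of them against ZR-75-30 (lower for 1) and for 58 against HCC1500 (lower for 1). Without the HCC1500 sample that stood apart these were 46 and 65. RRM2 changed by -0.54, -2.16 and -1.74 (adjusted p = 8.9e-12 and 4.1e-10), whereas PLK1 changed by -0.66, -0.59 and -1.79 and differed only from HCC1500 (adjusted p = 0.86 and 3.9e-06). For G1/S and replication genes the medians were -0.24, -0.77 and -0.58, with 46 of 86 higher and 2 lower in MDA-MB-175 than in ZR-75-30 and 32 higher and 4 lower than in HCC1500. Without the sample that stood apart, 57 and 53 were higher and 6 and 8 lower. For DNA repair the medians were -0.15, -0.31 and -0.33, with 22 of 110 higher and 1 lower against ZR-75-30 and 26 higher and 5 lower against HCC1500. Without that sample, 40 and 48 were higher and 10 and 8 lower. BRCA1 changed by -0.37, -0.93 and -1.38 (adjusted p = 0.054 and 0.00045). The sample that stood apart moved the BRCA1 comparison with ZR-75-30, which gave 7.6e-06 without it.

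Stress and organelle genes showed other orders. The integrated stress response list had medians of 0.36, -0.02 and 0.39 in the same order of lines, with ASNS at 0.83, -0.66 and 0.72 (adjusted p = 9.8e-07 against ZR-75-30 and 0.70 against HCC1500). Without the HCC1500 sample that stood apart, ASNS differed from HCC1500 as well (0.29, adjusted p = 0.0037), the HCC1500 median was 0.25, and the genes of the list higher in MDA-MB-175 than in HCC1500 went from 3 to 17 of 36. The NRF2 list had 0.38, 0.00 and 0.24, the last of which was 0.07 without that sample. The mitochondrially encoded genes had 0.38, -0.40 and 0.22, and 11 of 13 were higher than in ZR-75-30 (13 without it). The change was less than in ZR-75-30 for 14 of 55 lysosomal genes (medians 0.20 and 0.46) and for 7 of 17 class I presentation genes (0.25 and 0.85), or 22 and 12 without it, against the 5.64% and 13.3% of all genes given above. FOS changed by -0.65, -1.74 and 1.74 and EGR1 by -0.64, -1.21 and 0.73, and both differed from each other line. CYP1A1 changed by 1.84, 2.99 and 2.0, less than in ZR-75-30 (adjusted p = 0.0043). Its difference from HCC1500 did not go beyond its error (-0.17 ± 0.26). In ZR-75-30 low glucose CYP1A1 had 1 to 5 reads (values of 0.763 to 2.84). Its change in that line thus depends on the 1 added to each value.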

How the data were processed

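The authors trimmed reads with Trimmomatic, mapped to hg19 (TopHat, with the Ensembl v70 annotation) and tested with DESeq2, with CPM from edgeR's TMM factors, whereas the labels name hg38 and edgeR. The deposited signal values, listed for 18889 genes, were neither counts nor CPM: every sample had 1 divisor that gave whole reads for 100% of values (within 0.05 of a whole number). In 9 entries the symbol was split over several cells, so values were read from the row's end. Value totals were 6023522 to 6339651 per sample. Strand use in counting was not given in the sources used here, so overlapping and antisense genes cannot be told apart.

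Samples were grouped by their titles. The 8 MDA-MB-175 samples were fitted on log2(value + 1) by limma (version 3.58.1, R 4.3.3), which understates changes of low genes, with an intensity trend, no covariate and Benjamini-Hochberg adjustment over all 17029 genes (threshold 0.05). All tests were two-sided, errors are SE of the log2 change unless stated, and all adjusted p-values are limma's. Differences between lines were interaction contrasts of 6 group means over 24 samples. edgeR 4.0.16 and DESeq2 1.42.0 on the recovered reads were alternatives. The other alternatives changed the pseudocount, filter, scaling, variance prior, fold threshold or samples. The limma, edgeR and DESeq2 fits of the 8 samples were tested on simulated data, as was the MDA-MB-175 change in the 24-sample fit. The contrasts between lines and the other alternatives were not tested in this way. The plan had assumed another normalized unit, and its test on log values was kept. Exact 95% intervals of read ratios cover counting error only.

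The comparison and the gene lists were chosen with earlier results of these data known. Named genes were TXNIP and ARRDC4, the key members of each list with up to 3 called members of largest change without overlap and a mean of at least 10, the 12 largest rises and falls of that kind, genes with 3 reads or fewer in every sample of 1 condition and 10 or more in every sample of the other, the 5 highest and lowest genes differing from both lines, and the 5 most abundant genes called in each direction. PSG3, PSG8, PRDX6, TXNRD1, EGLN3, PFKFB4, EPAS1, ATF5, MTHFD2, DDIT3, PHGDH, PSAT1, PSPH, MITF, SGSH, CTSD, SQSTM1, CDC25A, AURKB, WEE1, CKS1B, CENPN, CDC20, RAD23B, GTF2H1 and LIG4 were chosen after their values were seen, as were the promoters shown. Coordinates of genes are GRCh37, from GENCODE release 44 lifted to that build (18325 of 18889 genes matched, 97.0%). Promoters are RefSeq's for GRCh38.p14, matched by symbol for 10663 of 16967 tested symbols. Some genes that the rule names are not reported here.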

Additional observations from a re-analysis of the deposited data

Results flagged for a closer look

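Among the genes named, 33 of 446 groups of 4 samples had 1 sample farther from the other 3 than Dixon's 95% critical value allows, where chance gives about 1 in 20. The sample in question was low glucose replicate 4 in 7 groups and high glucose replicate 1 in 6.

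In low glucose, replicate 4 stood apart for AC090425.1 (1.02), ASNS (383.0), C12orf36 (19.3), GDF15 (1972), HSPA1B (1317), NR1H2 (154) and SGSH (176). Replicate 1 stood apart for HIST1H2AC (312), MLX (652) and PRDX6 (3021). Replicate 2 stood apart for OAS1 (213) and ENSG00000239969 (8.04), and replicate 3 for LPIN1 (79.7), POLR2J2 (25.6) and VIM (7.97).

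In high glucose, replicate 1 stood apart for ALDH1A3 (2251), CAPSL (4.16), CPLX2 (12.5), KRT81 (13433), PCDH11X (8.32) and PSG9 (124). Replicate 2 did so for NR1H2 (237), PDK4 (170) and PSG4 (72.7), replicate 3 for ARRDC4 (141), HSPB8 (639), SORD (160) and TGFA (99.6), and replicate 4 for AC090425.1 (20.5), ATF3 (84.1), RRM2 (798), SDF2L1 (117) and TNFSF15 (41.0).

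The change with glucose differed between MDA-MB-175 and the other lines by the interaction test for the genes below, with the change of MDA-MB-175 minus that of the other line on the log2 scale. It was above both lines for PSG5 (5.42 over ZR-75-30 and 4.99 over HCC1500), PSG9 (3.65 and 5.39), CES1 (3.48 and 3.54), AC090425.1 (3.15 and 2.26), CTD-2003C8.2 (2.70 and 2.66), UCA1 (4.38 and 1.87), TFEC (2.10 and 1.90), ALDH1A3 (1.74 and 1.27), SLC7A11 (2.47 and 1.33) and RRM2 (1.62 and 1.20). It was below both for TXNIP (-0.37 and -0.63), ENSG00000239969 (-2.27 and -2.84), CAPSL (-2.0 and -2.51), BST1 (-2.37 and -1.64), DEPDC7 (-2.09 and -1.65) and TFAP2E (-1.78 and -1.74). It lay above ZR-75-30 and below HCC1500 for FOS (1.09 and -2.39) and EGR1 (0.57 and -1.37). Against a single line it differed for GPNMB (0.92), ASNS (1.49) and CYP1A1 (-1.15) from ZR-75-30 and for PLK1 (1.13) and BRCA1 (1.0) from HCC1500. Without HCC1500 high glucose replicate 3 these differences all remained past the threshold. CES1, AC090425.1, CTD-2003C8.2, TFEC and BST1 had at most 5 reads in any sample of the other lines. So did PSG5, CAPSL and UCA1 in ZR-75-30 (at most 5, 5 and 0) and ALDH1A3 and DEPDC7 in HCC1500 (at most 4 and 3). PSG5 had at most 7 reads in HCC1500, UCA1 had 1 to 9 in HCC1500 low glucose, and CYP1A1 had 1 to 5 in ZR-75-30 low glucose. PSG9 had 0 reads in low glucose of MDA-MB-175 and at most 2 in that of ZR-75-30.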

How the results depend on the processing

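The count of 4368 genes that differed between high and low glucose lay between 3342 (variance prior without an intensity trend) and 4629 (CPM rescaling) over the other pseudocounts, filters, scalings and tools, with edgeR at 4402 and DESeq2 at 3929. It was 2011 in 1 fit of all 24 samples, of which 1907 were among the 4368, and 4565 (3815 shared) when HCC1500 high glucose replicate 3 was dropped from that fit, an alternative chosen after seeing the data. It was 381 with an absolute log2 change of at least 1. The share that was higher moved from 46.5% to 40.5% under CPM rescaling and to 53.1% under median-of-ratios rescaling. Without 1 sample at a time the count lay between 3529 and 5038, the highest without low glucose replicate 4. The counts of genes whose change differed from ZR-75-30 (2029), from HCC1500 (3214) and from both (590) lay between 1672 and 4684, between 2757 and 5887 and between 481 and 1424 when single samples were left out, the upper values coming from leaving out HCC1500 high glucose replicate 3. Without single MDA-MB-175 samples alone they lay between 1672 and 1872, between 2757 and 2906 and between 481 and 548. With other scalings or pseudocounts they reached 2414, 4232 and 821. The cause of these moves was not tested.

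Of 187 genes named that were called, 175 were tested in all 21 alternatives fitted to MDA-MB-175 samples alone, and 160 of these kept their call in all of them. Of the other 12, left out by a filter or without an adjusted p in some, 11 kept it wherever tested, and 0 reversed. In the fit of 24 samples 53 named genes lost their call, and 9 without HCC1500 high glucose replicate 3. Without a trend 16 lost it: BCL2L11, CDH1 (0.052), CDKN1A (0.073), DEPDC7, GTF2H1, HIF1A, HSPA1B (0.081), KRT81 (0.096), MT2A, MTHFD2, NR1H2 (0.079), RPL13A, RPL26 (0.062), RPL41 (0.073), SAMD9 and SGSH (0.053). Besides the genes given in the report with a value without 1 sample, the calls of RPL13A (0.05 without low glucose replicate 2) and DEPDC7 (0.092 without high glucose replicate 3) were lost, and those of AURKB (0.021 without low glucose replicate 4), CDC25A (0.035 without low glucose replicate 3), MYC (0.047 without high glucose replicate 3), IFIT1 (0.048 without high glucose replicate 1), PHGDH (0.031 without low glucose replicate 1) and PSPH (0.019 without high glucose replicate 2) were gained, all as adjusted p. The list medians near 0 changed sign with the scaling for interferon-stimulated genes (-0.04 to 0.01), cholesterol genes (-0.01 to 0.04) and clustered histones (-0.03 to 0.01).

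The replicate numbers did not pair the samples. Deviations from the group means of same-numbered samples correlated at 0.16, -0.04, 0.02 and 0.05 for numbers 1 to 4, against a mean of -0.02 for other numbers, and 3 of 8 samples correlated best with their own number. With the number as a block 4525 genes were called, of which 4226 were among the 4368, and 1539, 2704 and 438 genes differed from ZR-75-30, from HCC1500 and from both. Depth limits genes with values near that of 3 reads (1.17 to 2.01), and PSG3 and PSG8 had no adjusted p in DESeq2.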

Other observations

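Of 1510 long noncoding RNAs tested, 90 were higher (6.0%) and 58 lower (3.8%) in high glucose, and of 14169 protein-coding genes 1866 were higher (13.2%) and 2238 lower (15.8%). The difference between these shares was not tested, and calls were fewer among weakly expressed genes of any kind. Further genes rose steeply that belong to no list, and they were chosen after their values were seen. ADORA1, the A1 adenosine receptor, went from 61.4, 67.0, 76.3 and 60.5 to 332, 345, 312 and 298 (2.27 ± 0.08 on the log2 scale, adjusted p = 1.3e-11 by limma). TRIM31, a ubiquitin ligase, went from a mean of 4.88 to 29.5 (2.38 ± 0.19), and EPGN, a ligand of the EGF receptor, from 5.31 to 26.2 (2.14 ± 0.23). None of these 3 genes had overlapping groups.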
